A study of Mus musculus with 8 samples.

Results

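The 10 genes described here encode actin and the proteins that hold, load or release actin monomers or cut actin filaments: the profilins Pfn1 and Pfn2, destrin (Dstn), the cofilins Cfl1 and Cfl2, the beta-thymosins Tmsb4x and Tmsb10, the cytoplasmic actins Actb and Actg1, and the cyclase-associated protein Cap1. They are 10 of the 55421 genes in the count table, and all 10 passed the filter on low counts, which left 15137 genes. The set was chosen by gene family, and partly selected on earlier results of the same data: the opposite log2 fold changes of Pfn1 and Dstn after treatment with small interfering RNAs (siRNAs) against Tfap4. For that comparison the 10 genes are therefore described with no test.

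Gene expression was measured by QuantSeq, which sequences the 3′ ends of polyadenylated RNA, in E14 mouse embryonic stem cells (129/Ola background) cultured in serum on gelatin-coated plates with the cytokine LIF, which keeps them undifferentiated. The 8 libraries form 4 groups of 2 biological duplicates. KO cells lack the microRNA cluster miR-290-295 and were untreated, WT cells carry it and were untreated, and these 4 libraries were one set. The siTfap4 group is KO cells transfected with 5 nM of a siPOOL (a pool of siRNAs) against Tfap4 for 36 hours, the siNeg group is KO cells transfected in the same way with a negative control siPOOL, and these 4 libraries were another set. Both siPOOL groups thus lack the cluster, and no WT cells received a siPOOL. The labels do not say whether the KO line is 1 clone, nor whether duplicates came from separate cultures, so p-values measure the spread between these samples only. The titles of the 4 untreated libraries carry further tags of unstated meaning: KO replicate 2 and WT replicate 1 share one, and the duplicates of each group differ in theirs, and their part in the spread was not tested.

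Library totals lay between 8326675 and 12726123 counts. Tfap4 itself, a transcription factor that binds E-boxes, was at 12.4 and 15.8 CPM (counts scaled to a common library size) in siTfap4 and 34.4 and 37.4 CPM in siNeg, and at 49.0 and 42.1 CPM in KO and 19.7 and 16.4 CPM in WT. The 5 stem cell markers (Pou5f1, Nanog, Sox2, Zfp42, Esrrb) summed to between 1635 and 2156 CPM in the 8 libraries, with none of them at 0 in any group. Among the 8 fibroblast or feeder markers, whose sums were 11.8 and 22.4 CPM in KO, 30.9 and 54.6 CPM in WT, 7.67 and 9.94 CPM in siTfap4, and 11.4 and 13.6 CPM in siNeg (lowest and highest library), Col3a1 and Postn were at 0 in every group.

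Actin cycles between free monomers and filaments. Profilin binds ATP-loaded monomers and feeds them to growing filament ends, beta-thymosins hold monomers in reserve, destrin and the cofilins bind and sever older filaments, and cyclase-associated protein recycles the monomers that are released. The free monomer pool also controls gene expression, since monomers bind the coactivators of the transcription factor SRF, whose reported targets include actin genes. In mouse embryonic stem cells the miR-290-295 cluster supplies abundant microRNAs that repress messenger RNAs carrying matches to their seed, the bases near the microRNA's 5′ end.

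Of the microRNAs that the KO cells lack, 5 that share bases 2 to 7 are shown because a match to these bases can be looked for in the 10 genes. The microRNA miR-292a-3p is not shown. The mature sequences are RefSeq's (GRCm38.p6, chromosome 7, plus strand), in RNA letters, with bases 2 to 8, the seed, in capitals.
miR-290a-3p: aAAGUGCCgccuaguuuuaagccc
miR-291a-3p: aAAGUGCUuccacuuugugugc
miR-291b-3p: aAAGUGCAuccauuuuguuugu
miR-294-3p: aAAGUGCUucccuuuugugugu
miR-295-3p: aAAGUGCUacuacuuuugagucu
Bases 2 to 7 are the same in these 5 microRNAs, and base 8 divides them into AAGUGCU (miR-291a-3p, miR-294-3p and miR-295-3p), AAGUGCC (miR-290a-3p) and AAGUGCA (miR-291b-3p). The complement of the shared part, GCACTT, was searched on the sense strand of the 3′ UTRs, taking the longest one annotated for a gene. It occurred 4 times in Pfn2 (1322 bases of 3′ UTR) and 3 times in Cfl2 (2308 bases), and in none of the other 8 genes, whose 3′ UTRs ran from 271 bases in Tmsb10 to 1708 in Cfl1. Across the 16921 genes with a count and an annotated 3′ UTR (median length 1068 bases), 30.9% held the word at least once and 3.62% held it 3 or more times. The 7 matches follow, with GCACTT and the base before it in capitals. The position is that of the first base of GCACTT, counted from the first base after the stop codon.
Pfn2 3′ UTR, base 452: agtgtcttttcAGCACTTtggagcat
Pfn2 3′ UTR, base 685: aatacagtgacTGCACTTgggacaga
Pfn2 3′ UTR, base 748: tggagagcaaaGGCACTTcctcccac
Pfn2 3′ UTR, base 1197: atttctttcccTGCACTTtgttacat
Cfl2 3′ UTR, base 387: ttatttatagtTGCACTTgattaccg
Cfl2 3′ UTR, base 495: tattcgttaaaAGCACTTttttttta
Cfl2 3′ UTR, base 1048: aaaattcttttTGCACTTtggcctat
A word that starts with A is complementary to bases 2 to 8 of miR-291a-3p, miR-294-3p and miR-295-3p, a word that starts with G to those of miR-290a-3p, and one that starts with T to those of miR-291b-3p, among the 5 shown. Pfn2 thus held a match to each of the 3 seeds of bases 2 to 8, and Cfl2 lacked one to that of miR-290a-3p. All 7 words match bases 2 to 7 of the 5 microRNAs. A match is a string of letters and does not show that a microRNA binds there.

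**Figure D1:**
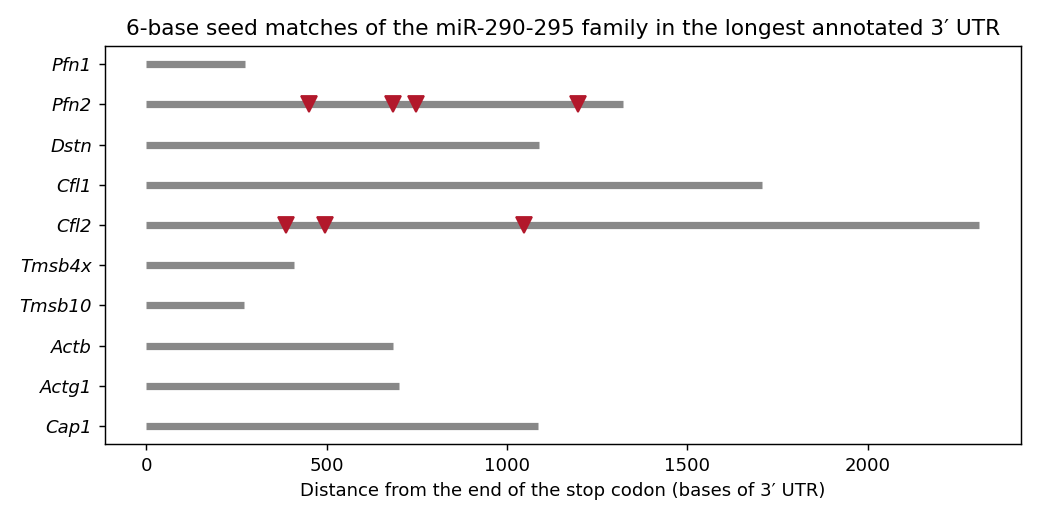
Longest annotated 3′ UTRs of the 10 genes (grey lines, in bases from the stop codon), with each match to the 6-base seed complement as a red triangle. Pfn2 carries 4 matches and Cfl2 carries 3, and the other 8 genes carry none.

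In KO cells against WT cells, Pfn2 rose and no other gene of the 10 passed the test or had an unadjusted p under 0.05. DESeq2 and limma-voom also called 1 of the 10. That is 1 of 10 genes called by edgeR, where 9.95% of all tested genes were called (5.99% higher and 3.96% lower). Pfn2, located at chr3:57841895-57848079 on the minus strand (GRCm38, as are all positions here), encodes the profilin best known from neurons. It had 41.4 and 27.2 CPM in KO, against 9.10 and 8.63 CPM in WT. Both KO libraries lay above both WT libraries, where groups did not overlap in 57.5% of all tested genes. In the pair that shares a title tag the values were 27.2 CPM in KO and 9.10 CPM in WT. The log2 fold change was 1.95 (standard error 0.31), 3.87-fold higher, with an adjusted p of 0.000854 by edgeR's quasi-likelihood test with Benjamini-Hochberg adjustment over all tested genes. Leaving out each of the 4 libraries in turn gave log2 fold changes between 1.62 and 2.23, with adjusted p between 0.000918 and 0.0176.

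Pfn1, at chr11:70651850-70654644 on the minus strand, encodes the ubiquitous profilin. It had 67.3 and 81.8 CPM in KO, against 107 and 64.4 CPM in WT, and the groups overlapped (log2 fold change -0.20, standard error 0.47, edgeR adjusted p = 0.854). As the profilins moved unequally, the share of Pfn1 in the summed counts of both profilin genes was 68.5% ± 9.30 in KO and 90.2% ± 2.80 in WT (SD, n = 2 each).

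Among the genes for filament severing, Dstn (chr2:143915320-143943324, plus strand) had 298 and 416 CPM in KO, against 280 and 234 CPM in WT. Cfl1 (chr19:5490455-5495201, plus strand), the cofilin of most cell types, had 233 and 212 CPM in KO, against 328 and 271 CPM in WT. Cfl2 (chr12:54858809-54862877, minus strand), the cofilin prominent in muscle, had 52.3 and 55.3 CPM in KO, against 37.1 and 45.9 CPM in WT. For each of the 3 genes the groups did not overlap, as for 57.5% of all tested genes, but none passed edgeR's test: the log2 fold changes were 0.47 for Dstn (standard error 0.26, adjusted p = 0.304), -0.43 for Cfl1 (0.23, adjusted p = 0.274) and 0.38 for Cfl2 (0.24, adjusted p = 0.382). Cfl2, with its 3 seed matches, and Pfn2, with 4, both had positive values, and only that of Pfn2 was called. Their difference was not tested. Over the tested genes with an annotated 3′ UTR the median log2 fold change was 0.12 for the 527 genes with 3 or more matches, of which 8.73% were called higher. It was -0.04 for the 8540 genes with none, of which 5.78% were called higher. The part of 3′ UTR length in this difference was not tested.

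None of the genes of the monomer reserve or of actin itself was called in KO against WT. Tmsb4x (chrX:167207093-167209315, minus strand), the main beta-thymosin of many cells, had 817 and 848 CPM in KO, against 855 and 650 CPM in WT. Tmsb10 (chr6:72957347-72958748, minus strand), another beta-thymosin, had 175 and 190 CPM in KO, against 153 and 193 CPM in WT. Actb (chr5:142903115-142906754, minus strand), beta-actin, had 4090 and 5008 CPM in KO, against 4865 and 3657 CPM in WT. In these 3 genes the groups overlapped, with log2 fold changes of 0.15, 0.07 and 0.09 (edgeR adjusted p of 0.892, 0.891 and 0.885 for Tmsb4x, Tmsb10 and Actb).

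Actg1 (chr11:120345690-120348542, minus strand), gamma-actin, was counted at only 27 to 53 counts a library. It had 2.68 and 2.56 CPM in KO, against 4.31 and 3.49 CPM in WT (log2 fold change -0.58, standard error 0.43, edgeR adjusted p = 0.461). Cap1 (chr4:122859047-122886056, minus strand), which acts with cofilin to release monomers, had 87.2 and 88.8 CPM in KO, against 114 and 120 CPM in WT (log2 fold change -0.41, standard error 0.27, edgeR adjusted p = 0.400). In both genes the KO libraries lay below the WT libraries, without passing the test, and groups did not overlap in 57.5% of all tested genes.

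Markers of another cell type moved with the KO. The 7 primitive endoderm markers (Gata6, Gata4, Sox17, Dab2, Pdgfra, Col4a1, Lama1) summed to between 20.0 and 23.5 CPM in KO and between 159 and 173 CPM in WT, none was at 0 in either group, and 6 of the 7 fell in KO by edgeR's test. Dab2 fell by 4.39 on the log2 scale (adjusted p = 3.80e-05). Among the fibroblast markers, edgeR called 2 of 3 tested lower, and DESeq2 and limma-voom called 1 each. Thy1 (log2 fold change -1.35, edgeR adjusted p = 0.0244) had 26.5 and 48.3 CPM in WT, most of the summed CPM. The other, Col1a1, had only 5 and 4 counts in KO and 21 and 17 in WT. The part of these markers in the values of Pfn2 was not tested. Fewer cells of a type and less RNA per cell cannot be told apart in such bulk samples.

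**Figure D2:**
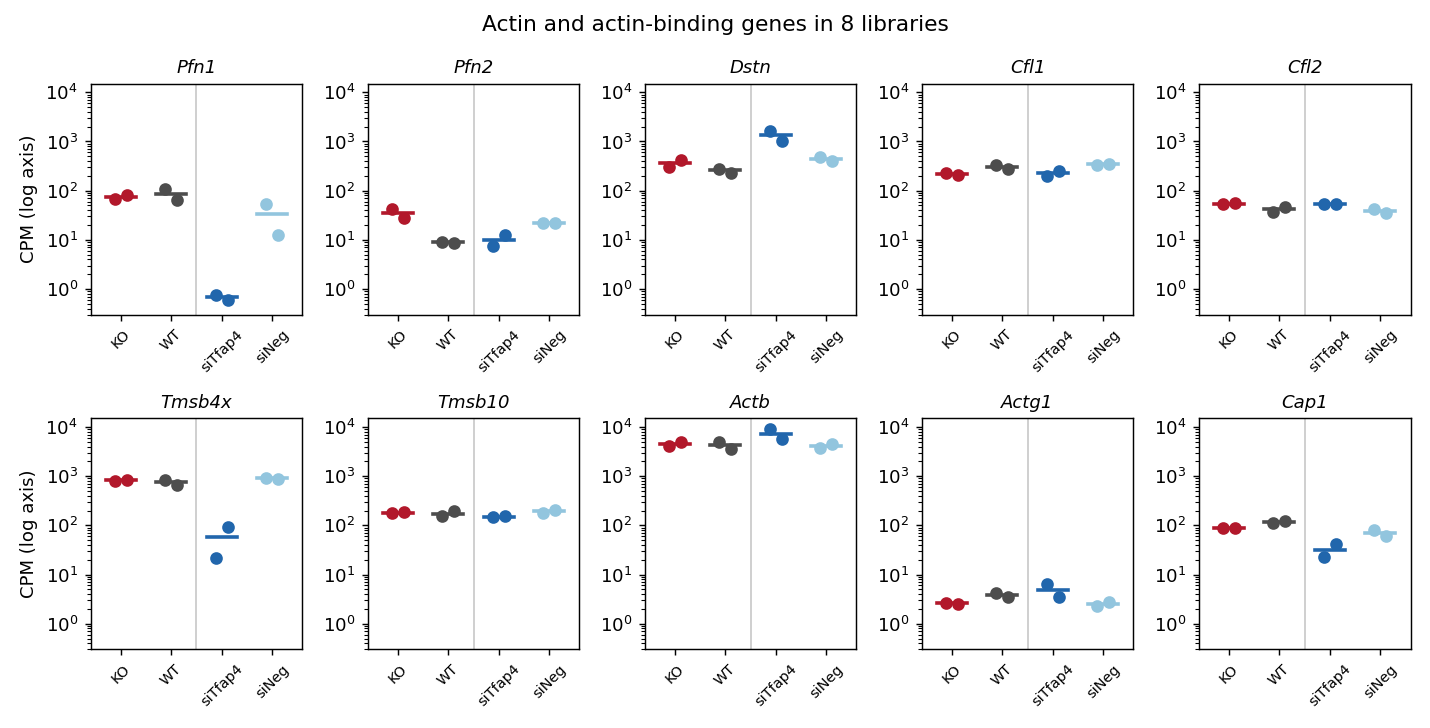
Level of each gene in each library, in CPM on a log axis, with 1 point per library and a bar at the group mean (n = 2). Pfn2 is higher in KO than in WT, while Pfn1 and Tmsb4x lie far lower, and Dstn higher, in siTfap4 than in siNeg; the grey line divides the 2 sets of libraries.

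After the Tfap4 siPOOL the genes moved apart. Pfn1 and Tmsb4x were by far the lowest relative to siNeg, Dstn was the highest, and the values of the other 7 genes lay between. Pfn1 had 0.764 and 0.590 CPM in siTfap4, which are 6 and 5 counts, against 53.1 and 12.6 CPM in siNeg, which are 620 and 130 counts. Both siTfap4 libraries were close to 0, and the siNeg duplicates themselves differed widely. The log2 fold change was -5.59 (standard error 0.79), 48.1-fold lower. Without siNeg replicate 1 it was -4.21, and without siNeg replicate 2 it was -6.29, so its size rests on which siNeg library is used.

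Dstn had 1630 and 1046 CPM in siTfap4, against 484 and 401 CPM in siNeg. The lower siTfap4 library was above the higher siNeg library. The log2 fold change was 1.60 (standard error 0.27), 3.02-fold higher, and it lay between 1.23 and 1.87 when each library was left out in turn. The contrast with Pfn1 can be read within each library, with no scaling between libraries: per count of Pfn1 there were 2132 and 1773 counts of Dstn in siTfap4, and 9.11 and 31.9 in siNeg. The same ratio was 4.42 and 5.09 in KO and 2.62 and 3.63 in WT. The siTfap4 ratios rest on 6 and 5 counts of Pfn1.

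Of the other profilin, Pfn2 had 7.39 and 12.4 CPM in siTfap4, against 22.1 and 21.5 CPM in siNeg (log2 fold change -1.13, standard error 0.32). Both profilin genes were thus lower in siTfap4, Pfn1 by far the more, and Pfn1 made up 6.96% ± 3.42 of profilin counts in siTfap4 and 53.8% ± 23.8 in siNeg (SD, n = 2 each). Pfn2 is the one gene of the 10 that was called in KO against WT, and its levels of 7.39 and 12.4 CPM in siTfap4 lay on either side of the 9.10 and 8.63 CPM of the WT libraries in the other set. Its siNeg levels, 22.1 and 21.5 CPM, already lay below the 41.4 and 27.2 CPM of the untreated KO libraries. The 2 sets were prepared apart and were not compared by a test.

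The severing genes differed among themselves. Cfl1 had 198 and 250 CPM in siTfap4, against 333 and 348 CPM in siNeg (log2 fold change -0.61, standard error 0.23), the opposite direction to Dstn. Cfl2 had 54.5 and 54.4 CPM in siTfap4, against 43.0 and 34.9 CPM in siNeg (log2 fold change 0.48, standard error 0.24). Dstn made up 82.0% ± 6.45 of the summed counts of the 3 genes in siTfap4 and 53.7% ± 3.62 in siNeg, and 56.0% ± 7.0 in KO and 42.9% ± 0.664 in WT (SD, n = 2 each).

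Both thymosins were lower in siTfap4, by very different amounts. Tmsb4x had 21.3 and 93.1 CPM in siTfap4, against 933 and 865 CPM in siNeg. The siTfap4 duplicates lay far from each other and both far below siNeg, and the log2 fold change was -3.97 (standard error 0.51), 15.7-fold lower, ranging from -5.41 without siTfap4 replicate 2 to -3.28 without siTfap4 replicate 1. Tmsb10 had 145 and 157 CPM in siTfap4, against 175 and 209 CPM in siNeg (log2 fold change -0.34, standard error 0.23). The share of Tmsb4x in thymosin counts lay between 12.8% and 37.2% in the siTfap4 libraries and between 80.5% and 84.2% in the siNeg libraries. It averaged 82.0% ± 0.456 in KO and 80.9% ± 5.46 in WT (SD, n = 2 each).

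**Figure D3:**
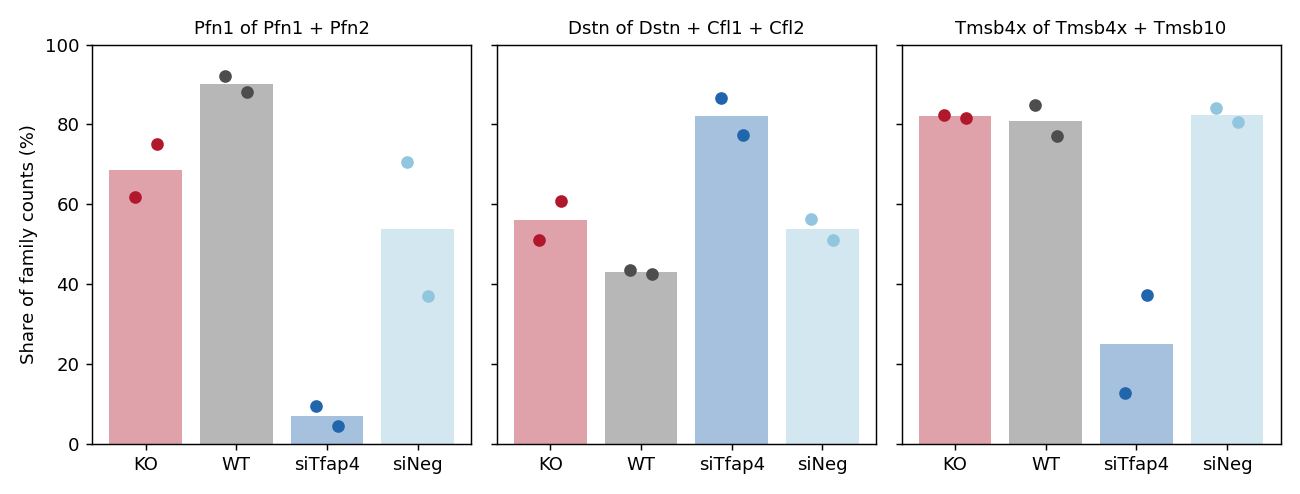
Share of one gene in the summed counts of its family (percent) in each library, with bars at the group mean and 1 point per library (n = 2). In siTfap4 the share of Pfn1 averages 6.96% and that of Dstn 82.0%, against 53.8% and 53.7% in siNeg, and the highest siTfap4 share of Tmsb4x is 37.2%.

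The actins were higher in siTfap4. Actb had 8931 and 5725 CPM in siTfap4, against 3663 and 4516 CPM in siNeg (log2 fold change 0.84, standard error 0.27). Actg1 had 6.37 and 3.54 CPM in siTfap4, against 2.31 and 2.81 CPM in siNeg (log2 fold change 0.95, standard error 0.44), from 50 and 30 counts in siTfap4 and 27 and 29 in siNeg. The Cap1 gene had 22.4 and 41.4 CPM in siTfap4, against 79.9 and 60.6 CPM in siNeg (log2 fold change -1.14, standard error 0.28). For each of the 10 genes the siTfap4 and siNeg libraries did not overlap, where 58.3% of all tested genes did not overlap and 15.4% were called by the test (4.36% higher and 11.1% lower). The rule used this contrast, so nothing is read from that count.

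**Figure D4:**
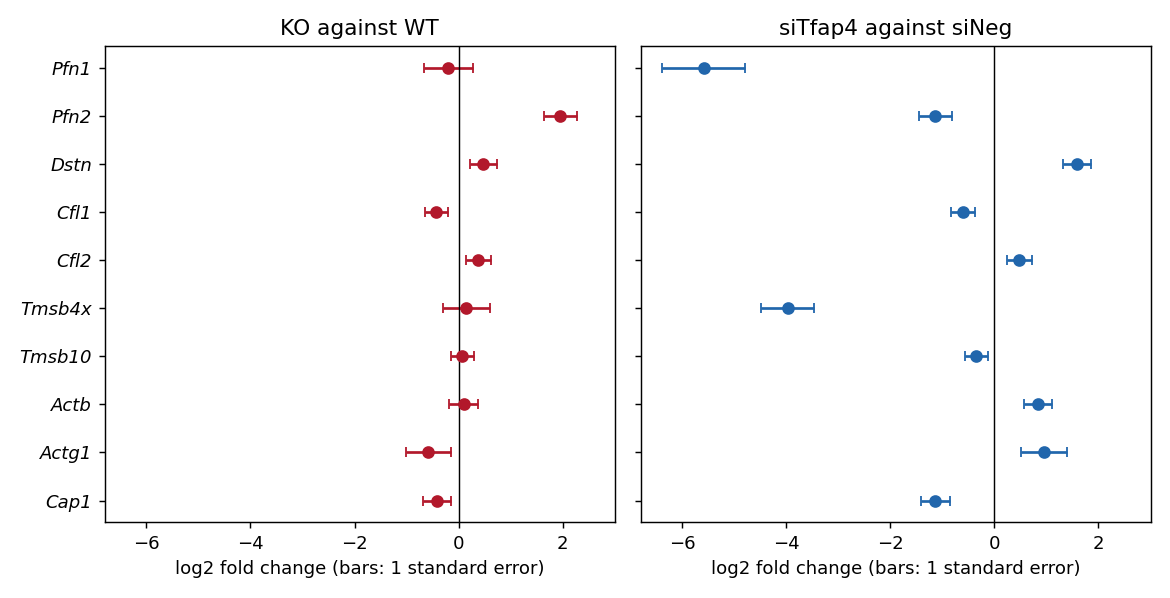
log2 fold change of each gene in KO against WT (left) and siTfap4 against siNeg (right), with bars of 1 standard error from edgeR's fit to all 8 libraries. Pfn2 stands out on the left at 1.95, and Pfn1 (-5.59), Tmsb4x (-3.97) and Dstn (1.60) on the right.

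Base composition moved with the siPOOL comparison. The last 100 bases of the transcript that ends outermost in each gene by annotation were used, because QuantSeq reads 3′ ends. Which annotated end the cells used was not examined. Over all tested genes the median log2 fold change of siTfap4 against siNeg was -0.51 for the 1597 genes with at most 25% GC there and 0.47 for the 1071 genes with over 50% and up to 55%. In KO against WT the medians of the same bins were -0.05 and -0.04. The siNeg duplicates also differed from each other by GC: replicate 1 less replicate 2 had a median log2 difference of 0.28 at up to 30% GC and -0.21 above 50%. The siTfap4 duplicates differed in the opposite direction, by -0.09 and 0.20 in the same bins. Pfn1 and Tmsb4x had 22% and 23% GC at that end, Dstn 42% and Actb 53%. Pfn2 had 28%, in the bin over 25% and up to 30%, whose median in siTfap4 against siNeg was -0.38. The GC offset fitted to each library depends on the transcript used. With the longest transcript, whose last 100 bases have 43% GC in Pfn1 and 53% in Tmsb4x, the log2 fold changes were -5.79 for Pfn1, -4.28 for Tmsb4x, 1.43 for Dstn and 0.49 for Actb. With the outermost end, chosen after the data were seen, they were -4.94 for Pfn1, -3.47 for Tmsb4x, 1.42 for Dstn and 0.45 for Actb. The offset thus made the values of Pfn1 and Tmsb4x larger or smaller according to the end used, with no change of direction. Cfl2, at 24% GC at its outermost end, had the one value that moved by more than its duplicates' spread, to 0.99 with the longest transcript and 1.02 with the outermost end. RNA quality was not measured here.

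**Figure D5:**
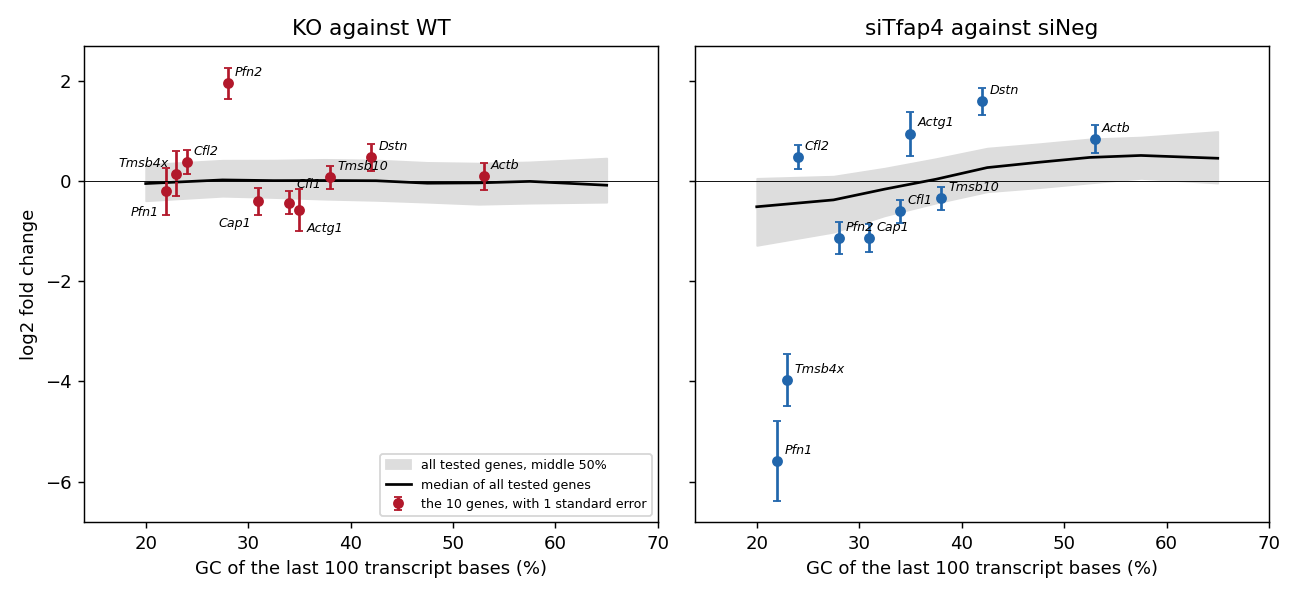
log2 fold change of the 10 genes (points, with 1 standard error) against the GC percent of the last 100 transcript bases, with the median and middle 50% of all tested genes in GC bins (the end bins are open). In siTfap4 against siNeg the median runs from -0.51 in the lowest bin to 0.46 in the highest, and Pfn1 and Tmsb4x lie far below it at 22% and 23% GC; in KO against WT it is flat.

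Actin genes have many processed pseudogenes, so the 3′ ends of the 10 genes were compared with all annotated transcripts (GENCODE, GRCm38). Of the words of 31 bases in the last 200 bases of each end, none occurred in another annotated gene for Pfn1, Pfn2, Dstn, Cfl2 and Tmsb4x. Pfn1 and Dstn thus share no such word with an annotated pseudogene in the last 200 bases. In the last 600 bases, 1.40% of the words of 1 Pfn1 end occurred in another annotated gene, and 0% of those of Dstn. In Cap1 1.18% of the words were shared. The main exception was Tmsb10, whose ends shared between 92.9% and 97.6% of their words with Gm9844, annotated as a protein-coding gene, apart from 1 other annotated end that shared 0%. Gm9844 held 110 counts over the 8 libraries, 0.727% of the counts of Tmsb10, and how reads common to both were counted is not given in the sources used here, so the level of Tmsb10 is uncertain. Summing the 2 genes left the log2 fold changes of Tmsb10 within the spread of its duplicates.

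For Actb, the common end shared 25.9% of its words: with Lrrc58 (22.9%), a protein-coding gene with 3432 counts, and with the processed pseudogenes Gm4750 and Gm8464, which held 1 and 2 counts. In the last 600 bases the share was 27.7% at that end and 35.6% at another annotated end. The ends of Actg1 shared none of the last 200 bases, while 37.4% of the words in the last 600 bases of 1 of its transcripts occurred elsewhere. Its low count was not traced to these, and no genome sequence was used, so copies outside the annotation were not examined. In Cfl1 the end of the longest 3′ UTR shared 35.9% of its words with 376 genes, of which 104 held at least 10% of its words, whereas of its other 2 ends 1 shared none and 1 shared 13.5%. Cap1 is overlapped at its 3′ end on the other strand by Ppt1, a lysosomal enzyme gene at chr4:122836242-122859175, with 175 and 177 counts in siTfap4 and 478 and 409 in siNeg, and 428 and 513 counts in KO and 266 and 255 in WT. The strand setting of the counting is not given, so the reads of Ppt1 and Cap1 cannot be told apart here with certainty.

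The promoters of the genes furthest apart after the Tfap4 siPOOL are shown because TFAP4 binds E-boxes. The log2 fold changes of Cap1 (-1.14) and Pfn2 (-1.13) were almost equal, and the promoter of Pfn2 is not shown. RefSeq's promoter table (GRCm38.p6, 250 bases before to 50 after a start) matched 9 of the 10 genes, all but Actb. Each sequence reads 5′ to 3′ on the gene's strand, with every CANNTG, the general E-box, in capitals.
Pfn1, chr11:70654601-70654900, minus strand: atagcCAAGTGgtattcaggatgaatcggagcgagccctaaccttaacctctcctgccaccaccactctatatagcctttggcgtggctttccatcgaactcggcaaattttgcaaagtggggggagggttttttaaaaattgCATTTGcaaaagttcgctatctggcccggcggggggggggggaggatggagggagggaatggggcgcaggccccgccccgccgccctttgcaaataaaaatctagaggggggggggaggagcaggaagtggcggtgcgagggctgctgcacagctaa
Tmsb4x, chrX:167209169-167209468, minus strand: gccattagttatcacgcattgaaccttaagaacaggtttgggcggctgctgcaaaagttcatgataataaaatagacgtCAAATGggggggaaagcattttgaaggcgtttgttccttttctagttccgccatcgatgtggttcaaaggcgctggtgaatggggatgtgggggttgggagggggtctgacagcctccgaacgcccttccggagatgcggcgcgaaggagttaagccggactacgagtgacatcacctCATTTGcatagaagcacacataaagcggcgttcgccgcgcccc
Cap1, chr4:122886027-122886326, minus strand: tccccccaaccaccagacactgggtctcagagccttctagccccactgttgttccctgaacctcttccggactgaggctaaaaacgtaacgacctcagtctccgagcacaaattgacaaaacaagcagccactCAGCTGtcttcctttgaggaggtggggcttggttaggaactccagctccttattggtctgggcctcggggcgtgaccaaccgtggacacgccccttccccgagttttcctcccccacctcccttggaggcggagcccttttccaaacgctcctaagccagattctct
Dstn, chr2:143915081-143915380, plus strand: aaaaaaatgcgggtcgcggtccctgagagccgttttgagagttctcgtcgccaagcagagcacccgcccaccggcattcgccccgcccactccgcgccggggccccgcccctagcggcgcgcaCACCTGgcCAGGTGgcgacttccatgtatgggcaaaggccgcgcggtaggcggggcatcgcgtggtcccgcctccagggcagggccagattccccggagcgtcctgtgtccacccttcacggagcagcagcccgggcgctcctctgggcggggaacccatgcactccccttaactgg
The word CANNTG is its own reverse complement pattern, so 1 search covers both strands, and CAGCTG, the E-box form reported for TFAP4, is among its cases. CANNTG occurred 2 times each in Pfn1, Tmsb4x and Dstn, and 1 time each in Cap1 and in Pfn2, where it was CACGTG. The only CAGCTG in the promoters matched was that of Cap1, and this word occurs in 16.3% of the 32851 promoters in the table, while CANNTG occurs in 72.3%. The CArG box, bound by SRF, was found in 1 of the 9 genes searched, Actg1, and in 1.63% of all promoters. The promoter of Actb was not searched. These counts describe the letters in this window and say nothing of binding.

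The genes whose log2 CPM, centred within each of the 2 sets, were most like that of Pfn1 over the 8 libraries, among 3786 genes with a mean of at least 50 CPM, were Fen1, Ctnnd1 and Pprc1 (Pearson r = 0.99 for each). Fen1 encodes a DNA flap endonuclease, Ctnnd1 the cadherin-binding p120 catenin, and Pprc1 a coactivator of the PGC-1 family. Ctnnd1 had 2.55 and 2.12 CPM in siTfap4, against 155 and 44.0 CPM in siNeg, and so shared both the low siTfap4 level and the unequal siNeg duplicates of Pfn1. The log2 fold changes in siTfap4 against siNeg were -5.41 for Ctnnd1, -1.99 for Fen1 and -0.78 for Pprc1. A high r thus did not mean a change of equal size. Those most like Dstn were Ing1, Nxf1 and Gbf1 (r = 0.97, 0.97 and 0.96). Among them Gbf1, an exchange factor for ARF GTPases, had 144 and 90.5 CPM in siTfap4, against 66.7 and 62.1 CPM in siNeg. Between the genes of the set themselves, r was 0.89 for Pfn1 with Tmsb4x and -0.80 for Pfn1 with Dstn. For Dstn, r was -0.91 with Tmsb4x and -0.91 with Cap1. Pfn1 and Dstn were named for their opposite changes after the Tfap4 siPOOL, which enter their r, so nothing is read from its sign. These correlations are descriptions over 8 libraries. The part of library depth and of the GC trend given above in them was not tested.

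In 7 wider lists of actin regulators, written with earlier results in view and holding 110 other genes, 98 were tested. In KO against WT, 5 rose and 1 fell (9.95% of all genes called), and the median log2 fold change was -0.02, against -0.01 over all genes. Pls3, the filament bundler plastin 3, rose by 1.67 on the log2 scale (edgeR adjusted p = 0.00195), with 47.8 and 28.0 CPM in KO and 12.7 and 11.05 CPM in WT. Tpm1, a tropomyosin along filaments, rose by 1.09 (adjusted p = 0.00608) and Mrtfb, a monomer-sensing SRF coactivator, by 1.17 (adjusted p = 0.00838). Tesk2, a cofilin kinase, rose by 0.91 (adjusted p = 0.0444). The other riser, Lcp1, and Wipf3, which fell by 2.68 (adjusted p = 0.000540), were below 10 CPM on average over the 4 libraries and are named because the count is small. The count was 2 without KO replicate 1, 2 without WT replicate 1, and 11 when the 4 libraries were fitted alone.

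In KO against WT edgeR called none of the 28 tested nucleators, where 4 had an unadjusted p under 0.05, none of the 13 genes for other severing, capping and disassembly, where 3 had one, and not the 1 tested further actin isoform, where none had one. DESeq2 and limma-voom called none of these either. Their most abundant members were Arpc2 and Arpc1b (log2 fold changes 0.27 and -0.13, edgeR adjusted p of 0.560 and 0.820), Capzb and Coro1c (-0.30 and -0.06, adjusted p of 0.471 and 0.929), and Acta1 (0.44, adjusted p = 0.840). Of the other monomer binders the most abundant were Mtss1 (-0.05, adjusted p = 0.938) and Twf1 (0.40, adjusted p = 0.350).

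In siTfap4 against siNeg, 3 of the 98 rose and 13 fell (15.4% of all genes called), with a median of 0.02, against 0.01 over all genes. Among the 28 tested nucleators 5 fell and 1 rose, where 11.1% of all tested genes were called lower and 4.36% higher. The share called lower varied with GC at the outermost end. It was 26.2% at up to 25% GC, 20.1% over 25% and up to 30%, and 3.73% over 50% and up to 55%. Of the 5 that fell, Actr2 had 21% GC there, Arpc5 22%, Cttn 27%, Actr3 30% and Arpc1a 32%. The part of GC in these falls was not tested. Cttn, cortactin, which stabilises branches, fell by 2.54 on the log2 scale (edgeR adjusted p = 5.71e-05), with 7.52 and 14.4 CPM in siTfap4 and 60.7 and 67.8 CPM in siNeg. Of the Arp2/3 complex, which starts branches, Arpc1a fell by 1.53 (adjusted p = 0.00294), Actr2 by 1.25 (adjusted p = 0.00867) and Arpc5 by 1.23 (adjusted p = 0.0191), while Arpc4, the one that rose, did so by 0.99 (adjusted p = 0.0158). Actr3 also fell, by 1.15 (edgeR adjusted p = 0.0100). The other listed subunits were not called: Arpc2 had a log2 fold change of 0.31, Arpc1b -0.07, Arpc5l -0.06 and Arpc3 -0.38.

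Among the 25 tested side binders and crosslinkers 4 fell and 2 rose, beside 11.1% lower and 4.36% higher over all tested genes. As for the nucleators, the part of GC in these changes was not tested. Myl12a, a myosin light chain, fell by 1.86 (adjusted p = 0.0103), and the alpha-actinins Actn4 and Actn1 fell by 1.61 and 0.95 (edgeR adjusted p of 0.00322 and 0.0371). Of the capping proteins, Capzb fell by 1.23 (adjusted p = 0.00206) and Capza1 by 1.10 (adjusted p = 0.0105), and of the other monomer binders Twf2, a twinfilin, fell by 0.94 (adjusted p = 0.0284). None of the 12 cofilin kinases and phosphatases was called by edgeR or limma-voom, while 3 had an unadjusted p under 0.05 and DESeq2 called 1. The most abundant, Rock1 and Pak2, had log2 fold changes of 0.08 and 0.17. Of the SRF list, 1 of 13 was called by edgeR and by limma-voom, and 3 by DESeq2, and the median log2 fold change was -0.60. The gene edgeR called, Myl9, a myosin light chain, rose by 1.85 (adjusted p = 0.0245). It had 62 and 54 counts in siTfap4 and 16 and 27 in siNeg, below 10 CPM on average. Of 2 genes chosen after their values were seen, Srf itself had 0 and 0 counts in siTfap4 and 50 and 5 in siNeg (edgeR adjusted p = 0.0523), and Ccn2, a reported target, had 5 and 7 counts in siTfap4 and 272 and 41 in siNeg (adjusted p = 0.171). The most abundant genes of the list, Tpm1 and Vcl, had 0.23 and -0.64 (adjusted p of 0.522 and 0.0959). Without siTfap4 replicate 1 the wider lists held 4 called genes and without siNeg replicate 1 they held 3, all of them lower in siTfap4, so that none of the rises was called there, and with the GC offset by outermost end 5 rose and 8 fell.

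Beside these values, stem cell markers moved in siTfap4: Nanog fell by 1.49 (edgeR adjusted p = 0.00403) and Pou5f1 rose by 1.02 (adjusted p = 0.0121), of 5 markers tested. Primitive endoderm markers summed to between 35.7 and 55.3 CPM in siTfap4 and between 27.4 and 37.0 CPM in siNeg, and none of the 7 was called by edgeR, DESeq2 or limma-voom, with 1 at an unadjusted p under 0.05. The part of these in the values of the actin genes was not tested.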

How the data were processed

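Integer counts per gene for 8 libraries were used as deposited; per the submitters' processing notes the reads were trimmed with Trim Galore and the build was GRCm38. Which aligner, counter, strand setting and annotation they used is not given in the sources used here. Per the labels' protocols, libraries were made with the QuantSeq 3′ FWD kit from Trizol RNA. Such counts are tags of 3′ ends and are not divided by length.

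The genes and lists were chosen with earlier results of these data known. Counts were fitted with edgeR 4.0.16 (R 4.3.3, with limma 3.58.1; filterByExpr, TMM, quasi-likelihood, robust, 4 group means over all 8 libraries, 4 residual degrees of freedom), with Benjamini-Hochberg adjustment over 15137 genes and a threshold of 0.05. CPM were computed here from counts with TMM factors. Standard errors are the absolute log2 fold change over the square root of F. The fit was tested on simulated data.

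Named were the 10 genes, up to 4 called genes of a wider list with the largest change and a mean of at least 10 CPM (otherwise its 2 most abundant), the 3 genes most like Pfn1 and Dstn, sharers of 3′ ends and Tfap4. Genes named outside this rule include Lcp1, Wipf3, Myl9, Col1a1, Arpc4, Actr3, Arpc3, Arpc5l, Srf and Ccn2. Genes that share repeat words with Cfl1 were too many to name, and 1 other gene is not reported here. Words of 31 bases in the last 200 bases of ends with at least 100 bases of 3′ UTR were compared with GENCODE transcripts.

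Alternatives were DESeq2 1.42.0, limma-voom, 2 other filters, the 4 libraries alone, the replicate number as a block, a GC offset by lowess (span 0.3) of the longest transcript's last 100 bases, that offset with the block, a threshold of 0.1, and each library left out, with a lone library assumed to vary like the others. Added after seeing the data were the GC offset by outermost end and the summing of copies that share at least 50% of an end's words. Summing every gene that shares a word was planned and not run.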

Additional observations from a re-analysis of the deposited data

How the results depend on the processing

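The rise of Pfn2 in KO was called under every alternative run, and none of the other 9 genes was called in KO against WT under any of them. The log2 fold changes of Pfn1 and Dstn in siTfap4 against siNeg kept their direction in every alternative, and when each library was left out in turn they ranged from -6.29 to -4.21 for Pfn1 and from 1.23 to 1.87 for Dstn. In siTfap4 against siNeg, Cfl2 moved to 0.99 with the GC offset, 0.99 with the GC offset and replicate block, and 1.02 with the offset by outermost end.

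Counts of called genes moved more. At a threshold of 0.1, 3528 genes were called in siTfap4 against siNeg, in place of 2334, and 26 in place of 16 in the wider actin lists. With the 4 libraries alone, 11 genes of the wider lists were called in KO against WT, in place of 6. Leaving out each library in turn gave between 629 and 880 called genes in KO against WT, in place of 1506, and between 522 and 2961 in siTfap4 against siNeg, and between 2 and 6 and between 3 and 23 in the wider lists. The lowest counts of siTfap4 against siNeg came without siTfap4 replicate 1 (522, of which 13 higher in siTfap4) and without siNeg replicate 1 (762, of which 36 higher), where 660 were higher with all libraries. The cause was not tested.

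With the replicate number as a block, 1337 genes were called in KO against WT and 2064 in siTfap4 against siNeg, and 5 and 16 in the wider lists. The deviations of same-numbered libraries correlated at -0.06 in KO and WT and 0.13 in siTfap4 and siNeg, and with 2 pairs the numbers are not shown to pair the samples. At 27 to 53 counts a library, Actg1 is measured with little precision, as is Pfn1 in siTfap4 at 6 and 5 counts.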
